A study of Mus musculus with 22 samples.

Results

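Chac1, Asns and Stc2, known target genes of the transcription factor ATF4, were described across 22 arrays of mouse embryonic anterior neural tube. They were chosen by gene symbol, with their arsenic differences at the earliest stage already known, and are 3 of the 9230 genes that had a probe with 1 symbol in the array annotation. Each was measured by 1 probe (4836 for Chac1, 4439 for Asns and 6337 for Stc2), so every value below stands for that probe. The study asked which genes respond to arsenic in the neural tube of embryos that lack Folr2, a membrane folate-binding protein. All dams, controls included, were Folr2-/-, so no wild-type embryo enters any comparison. Treated dams received sodium arsenate at 9.6 mg arsenic per kg by 2 intraperitoneal injections a day apart, and control dams received water. Embryos were collected at gestational day (GD) 8:15, 9:00 and 9:12, the number after the colon being the hour, which is 3, 12 and 24 h after the second injection. There were 4 control and 4 arsenic arrays from GD8:15, 4 control and 3 arsenic arrays from GD9:00, and 3 control and 4 arsenic arrays from GD9:12. The RNA was amplified before labelling because each dissected piece yielded little, and the labels do not say that each array came from a separate dam, so the p-values below measure the spread between these arrays, which may be technical in part.

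ATF4 is the transcription factor at the end of the integrated stress response. Kinases that sense unfolded protein, amino acid shortage, haem shortage or oxidative stress phosphorylate the initiation factor eIF2, which lowers translation in general while favouring translation of the Atf4 message. ATF4 then binds, together with C/EBP-family partners, to composite response elements in genes for amino acid synthesis and transport, and for control of the redox state. Chac1 encodes a cytosolic enzyme that cleaves glutathione. Asns encodes asparagine synthetase, which makes asparagine from aspartate with glutamine as the nitrogen donor. Stc2 encodes stanniocalcin 2, a secreted glycoprotein that is induced when protein folding in the endoplasmic reticulum is disturbed. Inorganic arsenic is a known activator of the response.

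The promoter windows of the 3 genes are shown because they hold, or lack, the short sequence that ATF4 complexes are known to bind. Each window runs from 250 bases before to 50 bases after the annotated start site and was taken from RefSeq (GRCm38.p6), read 5′ to 3′ along the strand of the gene. Capitals mark matches, on either strand, to TGATGNAA (the core of the C/EBP-ATF response element), TGACGTCA (the cyclic AMP response element) or GTTACA (the second nutrient-sensing element described for Asns). The windows lie at chr2:119350992-119351291 on the plus strand for Chac1, at chr6:7693160-7693459 on the minus strand for Asns and at chr11:31370012-31370311 on the minus strand for Stc2.
Chac1: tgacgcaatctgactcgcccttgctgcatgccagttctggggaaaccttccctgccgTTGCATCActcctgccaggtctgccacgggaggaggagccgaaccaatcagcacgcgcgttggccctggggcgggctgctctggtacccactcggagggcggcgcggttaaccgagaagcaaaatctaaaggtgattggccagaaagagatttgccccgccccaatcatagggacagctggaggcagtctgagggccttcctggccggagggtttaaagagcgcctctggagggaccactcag
Asns: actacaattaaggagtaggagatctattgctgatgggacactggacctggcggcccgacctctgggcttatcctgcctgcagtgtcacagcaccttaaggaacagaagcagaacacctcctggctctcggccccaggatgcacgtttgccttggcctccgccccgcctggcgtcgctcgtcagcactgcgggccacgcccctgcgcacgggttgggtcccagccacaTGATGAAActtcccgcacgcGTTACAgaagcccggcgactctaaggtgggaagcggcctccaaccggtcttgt
Stc2: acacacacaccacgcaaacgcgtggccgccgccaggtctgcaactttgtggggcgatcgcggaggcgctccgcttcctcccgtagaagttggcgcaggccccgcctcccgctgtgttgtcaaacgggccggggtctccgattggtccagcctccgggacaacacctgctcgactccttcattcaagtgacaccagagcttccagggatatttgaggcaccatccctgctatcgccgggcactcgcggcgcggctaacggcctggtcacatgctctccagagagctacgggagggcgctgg
The window of Chac1 held the response element core once, on the opposite strand, from -193 to -186 relative to the start site. The window of Asns held it once, on the strand of the gene, from -23 to -16, followed by GTTACA from -3 to 3. In this numbering there is no position 0. None of the 3 motifs was matched in the window of Stc2, which says only that these letters are not in this window. Of 32851 RefSeq windows of the same length, 3.97% held TGATGNAA, 1.79% TGACGTCA and 8.25% GTTACA. Of 55 other known ATF4 target genes, 45 had a window by symbol, and 16 of these (35.6%) held TGATGNAA, against 4.51% of all 27025 genes. The 16 genes with a match were Trib3, Atf3, Vldlr, Nupr1, Slc7a11, Slc1a4, Aars, Gars, Iars, Tars, Yars, Pycr1, Got1, Fgf21, Herpud1 and Jdp2. The match counts describe letters in a window and do not show binding.

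The values are deposited linear intensities brought to a common distribution by quantile normalisation of their log2, and a difference of 1 on this scale is 2-fold. The lowest intensity was 56, array medians lay between 123 and 291, and 7830 of 10500 probes entered the tests. Of 14 neural tube markers 11 were on the array, 10 of them among the probes tested. Six3, a homeobox gene of the anterior neural plate, was the brightest of the 11, at a mean percentile of 97 over the arrays. The median of the 11 was 71.6, and the dimmest, Rfx4, lay at 24.9. Folr2, the deleted gene, lay between 6.68 and 7.47 on the 22 arrays and did not pass the filter on dim probes; whether its probe lies in the deleted part is not given in the sources used here. Arrays carried runs of neighbouring probe numbers with low signal, and 1 Chac1 value (control GD9:00 replicate 2) and 1 Stc2 value (control GD8:15 replicate 1) lay in such runs. At GD9:00 the runs differed by arm. They held 10.8, 10.4, 2.37 and 7.97% of probes on the controls and 0.21, 0 and 0.486% on the arsenic arrays. Medians of deposited intensity there were 123 to 132 in controls and 153 to 199 with arsenic. The part of this in the arsenic differences of that stage was not tested. The titles of the samples end in codes that the labels do not explain; by their first digits these fall into 4 series, lettered A to D here. At GD8:15 all arsenic arrays carried series D, and the controls A, D, C and D, while at GD9:00 all arrays carried series C. At GD9:12 control replicate 1 carried series B and every other array series C.

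**Figure D1:**
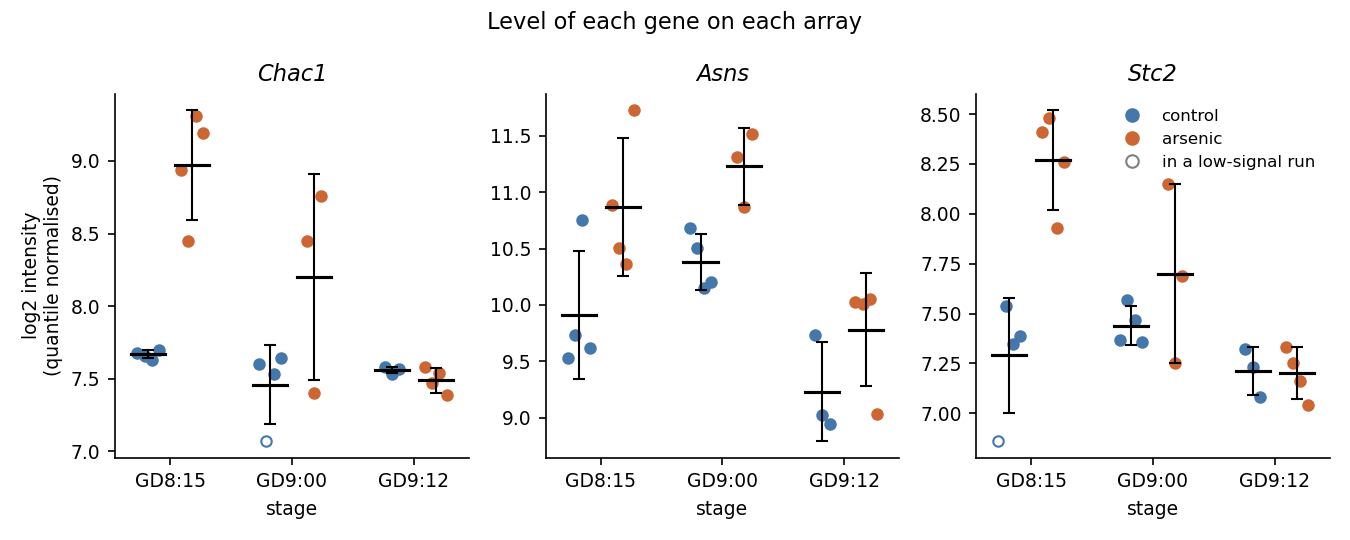
The vertical axis of each panel is the log2 intensity after quantile normalisation and the horizontal axis the stage. Points are single arrays, bars are mean ± SD, and open points lie in a run of low signal. The 4 arsenic arrays at GD8:15 sit at 8.45 to 9.31 for Chac1 and at 7.93 to 8.48 for Stc2, above their 4 controls, whereas 1 control of Asns, at 10.75, lies among its arsenic arrays.

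Chac1 had the largest early difference of the 3 and overlapped its controls at both later stages. At GD8:15 its deposited intensities were 203, 222, 142 and 240 on the control arrays and 481, 344, 591 and 568 on the arsenic arrays. On the normalised log2 scale these were 7.68, 7.66, 7.63 and 7.70 in controls and 8.94, 8.45, 9.31 and 9.19 with arsenic. The controls were nearly level, at percentile 55.8 of all probes on average, and all 4 arsenic arrays stood above them, at percentile 83.2. The difference was 1.30 ± 0.22 (SE), or 2.47-fold, and ranked 11 of 7830 probes by size. No test is given for it, since the gene was chosen with this difference known.

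At GD9:00, Chac1 read 7.60, 7.07, 7.53 and 7.64 in controls and 8.45, 7.40 and 8.76 with arsenic. The arsenic arrays split: replicates 1 and 3 lay above all 4 controls and replicate 2 lay within their range. The difference was 0.74 ± 0.24 (SE; 95% interval 0.24 to 1.25), or 1.67-fold, and did not pass (limma adjusted p = 0.268). Without arsenic replicate 2 it was 1.15 ± 0.19 and passed (limma adjusted p = 0.0388), and without arsenic replicate 3 it was 0.47 ± 0.24 (limma adjusted p = 1), so single arrays decide the call and the size. With the control value in the low run masked, the difference was 0.61 (limma adjusted p = 0.313).

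At GD9:12, Chac1 read 7.58, 7.53 and 7.57 in controls and 7.58, 7.47, 7.54 and 7.39 with arsenic. The groups overlapped and the difference was -0.07 ± 0.24 (SE; 95% interval -0.57 to 0.44; limma adjusted p = 1). The arsenic difference at GD9:12 was 1.37 ± 0.33 lower than that at GD8:15, for which no test is given, and 0.81 ± 0.34 lower than that at GD9:00 (limma adjusted p = 0.767). In controls alone the gene varied little: group means were 7.67 ± 0.029 (SD, n = 4), 7.46 ± 0.27 (SD, n = 4) and 7.56 ± 0.023 (SD, n = 3) in stage order, and none of the 3 differences between control groups passed.

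Stc2 was also higher with arsenic at GD8:15, on every array, and overlapped its controls at both later stages. At GD8:15 its log2 values were 6.86, 7.54, 7.35 and 7.39 in controls and 8.41, 8.48, 7.93 and 8.26 with arsenic, with deposited intensities of 109 to 207 against 328 to 351. All 4 arsenic arrays stood above all controls, moving the gene from percentile 34.4 to percentile 72.2. The difference was 0.98 ± 0.17 (SE), or 1.98-fold, and ranked 39 of 7830. The lowest control is the one in a low run, and with it masked the difference was 0.84.

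At GD9:00, Stc2 read 7.37, 7.57, 7.47 and 7.36 in controls and 8.15, 7.25 and 7.69 with arsenic. On the normalised scale arsenic replicates 1 and 3 were above all controls, as for Chac1, and replicate 2 was below all of them. In deposited intensities replicate 2 read 129, above the controls at 115 to 128. The median of that array was 153, against 123 to 132 on the controls. The difference was 0.25 ± 0.18 (SE; 95% interval -0.13 to 0.64; limma adjusted p = 0.599), and it was 0.03 without arsenic replicate 1 and 0.48 without arsenic replicate 2. With the scaling of the authors kept it was 0.67, or 0.24 relative to the median of all probes. At GD9:12, values of 7.32, 7.23 and 7.08 in controls and 7.33, 7.25, 7.16 and 7.04 with arsenic covered the same range. The difference was -0.01 ± 0.18 (SE; 95% interval -0.40 to 0.37; limma adjusted p = 1). Stc2 levels in controls did not differ between stages beyond the test, the largest being -0.23 ± 0.18 from GD9:00 to GD9:12 (limma adjusted p = 0.447). All 3 later controls lay below all 4 earlier ones, as they did for 15.5% of all probes.

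Asns was the one whose arsenic mean stood above the control mean at every stage, although its groups overlapped at the first and the last. At GD8:15 it read 9.53, 9.73, 10.75 and 9.62 in controls and 10.89, 10.51, 10.36 and 11.73 with arsenic. Arsenic replicates 1 and 4 lay above all controls, and replicates 2 and 3 above all but control replicate 3. The difference was 0.96 ± 0.32 (SE), or 1.95-fold, ranking 43 of 7830. Centring arrays on their medians gave 0.60, and leaving out 1 array at a time moved it between 0.68 and 1.25.

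At GD9:00, Asns read 10.68, 10.51, 10.15 and 10.20 in controls and 11.31, 10.87 and 11.52 with arsenic. All 3 arsenic arrays lay above all 4 controls, including replicate 2. On that array normalised Chac1 lay within the range of its controls and normalised Stc2 below it. The difference was 0.85 ± 0.35 (SE; 95% interval 0.12 to 1.58), or 1.80-fold, and did not pass (limma adjusted p = 0.35). Its size depends on the normalisation: it was 0.10 ± 0.49 with arrays centred on their medians (limma adjusted p = 0.935) and, with the scaling of the authors kept, 0.60, or 0.16 relative to the median of all probes. An exact two-sided permutation test over the 7 arrays gave p = 0.0571, the smallest value that 4 arrays against 3 allow. At GD9:12 the values were 9.73, 9.02 and 8.94 in controls and 10.03, 10.01, 10.05 and 9.03 with arsenic. Here 3 of 4 arsenic arrays exceeded all controls, and the difference was 0.55 ± 0.35 (SE; 95% interval -0.18 to 1.28; limma adjusted p = 1).

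**Figure D2:**
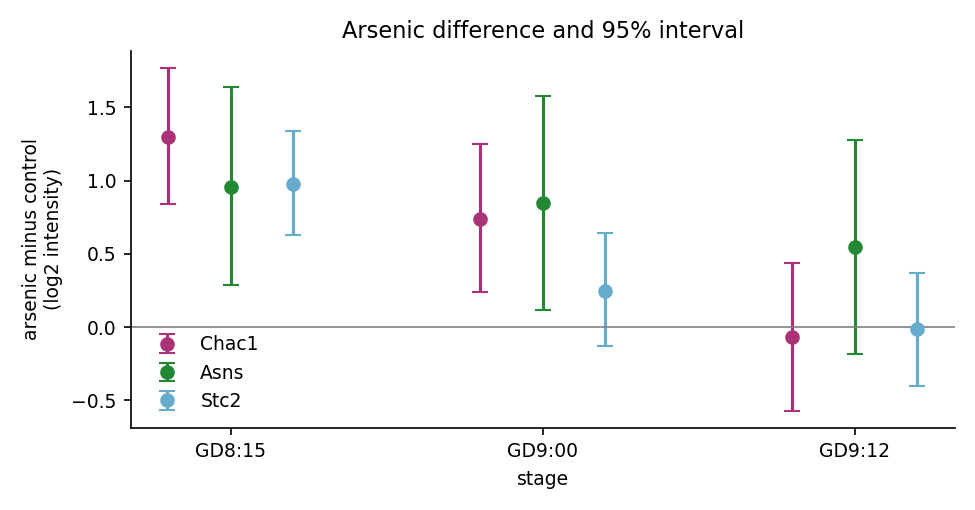
Points are arsenic minus control differences in log2 intensity (vertical axis) for Chac1, Asns and Stc2 at each stage (horizontal axis), and bars are 95% intervals from the fit over all arrays. Chac1 goes from 1.30 through 0.74 to -0.07 and Stc2 from 0.98 through 0.25 to -0.01, while Asns stands at 0.96, 0.85 and 0.55 with wider intervals.

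Whether the 3 genes differ from each other in how fast the difference declined was not tested. For Asns the arsenic difference at GD9:12 was 0.30 ± 0.49 lower than that at GD9:00 (limma adjusted p = 0.901; 95% interval -1.33 to 0.73), an interval too wide to tell a lasting difference from a lost one. The corresponding value for Stc2 was -0.27 ± 0.26 (limma adjusted p = 0.826).

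The background for these calls is low for arsenic and high for stage. With limma at an adjusted p under 0.05, 0% of the 7830 probes were called at GD8:15, 0% at GD9:00 and 0% at GD9:12, with 571, 984 and 100 at an unadjusted p under 0.05 and lowest adjusted p of 0.0514, 0.147 and 1. All arsenic arrays lay above all controls for 1.92% of probes at GD8:15, 2.41% at GD9:00 and 2.17% at GD9:12. Chac1 and Stc2 are among the first of these shares, where the difference served to choose the genes, and Asns is among the second. Between control groups, 15.0% of probes were called from GD8:15 to GD9:00, 11.2% from GD9:00 to GD9:12 and 7.71% from GD8:15 to GD9:12.

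Of the 9 control differences tested for the 3 genes, 1 passed. Asns fell by 1.15 on the log2 scale (SE 0.35; limma adjusted p = 0.0377) between the control groups of GD9:00 and GD9:12, from 10.38 ± 0.25 (SD, n = 4) to 9.23 ± 0.44 (SD, n = 3), with all 3 later arrays below all 4 earlier ones, as for 15.5% of all probes. The call did not hold everywhere. It was lost with the scaling of the authors kept, which itself moves the median of all probes by 0.79 (difference -0.27, limma adjusted p = 0.509; relative to that median, -1.05). It was also lost when arrays were centred on their medians (-0.98, limma adjusted p = 0.172) and on leaving out GD9:00 control replicate 1, 2 or 4 or GD9:12 control replicate 2 or 3. Among arrays of series C alone it was -1.41 (limma adjusted p = 0.0195). Between the arsenic groups of the same stages the difference was -1.45 ± 0.35, for which no test was planned, and the later arsenic group (9.78 ± 0.50, SD, n = 4) lay near the controls of GD8:15 (9.91 ± 0.57, SD, n = 4). Over the same control groups the summed intensity, after quantile normalisation, of 6 blood markers (1 below the filter on dim probes) went from between 1022 and 6919 to between 16182 and 45601, and that of 12 heart and muscle markers from between 4588 and 20106 to between 3037 and 4953. Sums of 11 neural tube markers (1 below the filter) went from between 7301 and 10479 to between 13291 and 17427. Those of mesenchyme and neural crest, surface ectoderm and endothelium were lower on every later control, and those of endoderm overlapped. The part of these markers in the Asns difference was not tested. Because these are bulk samples, less RNA per cell and fewer cells with the RNA cannot be told apart.

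Several other measures moved with the arms. At GD8:15 Xist, the non-coding RNA of the inactive X chromosome, read 7.02 to 7.10 in the controls and 7.86 to 9.06 in the arsenic arrays, and the Y-linked Eif2s3y 7.66 to 7.79 against 7.11 to 7.30, so the arms differed in these sex-linked RNAs without overlap. At GD9:00 Xist again separated the arms, at 7.10 to 8.71 in controls and 9.77 to 10.35 with arsenic, while Eif2s3y overlapped (7.06 to 7.89 against 7.01 to 7.18). At GD9:12 Xist was 6.88 to 11.34 in controls and 6.93 to 7.15 with arsenic. Control GD9:12 replicate 1, with Xist at 11.34, had Chac1 at 7.58 and Stc2 at 7.32, each the highest of its control group. Control GD9:00 replicate 1, with Xist at 8.71, had them at 7.60 and 7.37, neither the highest of its control group. The 3 arsenic arrays of GD9:00, with Xist at 9.77, 10.08 and 10.35, had Chac1 at 8.45, 7.40 and 8.76 and Stc2 at 8.15, 7.25 and 7.69. For Asns, the same 2 control arrays were the highest of their groups, at 9.73 and 10.68. The part of the sex-linked difference in the values of the 3 genes, at GD8:15 and at GD9:00, was not tested.

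The summed intensity, after quantile normalisation, of 12 heart and muscle markers was 16999 to 35313 in the GD8:15 controls and 5556 to 12023 in the arsenic arrays, with Actc1, the cardiac actin, the brightest. Of these 12 markers, 5 were below the filter on dim probes. Summed mesenchyme and neural crest markers, 10 genes of which 2 were below the filter, were 4349 to 5653 against 3173 to 4300. Their part in the differences of Chac1, Asns and Stc2 was not tested. At GD9:12 the heart and muscle sums were 3037 to 4953 in controls and 2918 to 4331 with arsenic. Within title series D alone, which leaves 2 controls at GD8:15, the differences were 1.29 for Chac1, 1.20 for Asns and 0.80 for Stc2.

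The genes upstream did not pass as single genes. Atf4 itself, the factor, read 11.04, 12.71, 12.61 and 11.98 in GD8:15 controls and 12.90, 13.91, 13.13 and 13.49 with arsenic. All 4 arsenic arrays were higher, with a difference of 1.27 ± 0.31 (SE, limma adjusted p = 0.295). The lowest of the controls lies in a run of low signal. At GD9:00 the Atf4 difference was 0.25 ± 0.34 and at GD9:12 it was -0.25 ± 0.34, with overlap at both. Impact, an inhibitor of the amino acid sensing kinase GCN2, was 0.67 ± 0.17 higher at GD8:15 without overlap (limma adjusted p = 0.34). For 1.92% of all probes at GD8:15 all arsenic arrays lay above all controls, as for Atf4 and Impact. The kinase genes Eif2ak1 (haem-regulated kinase), Eif2ak3 (PERK) and Eif2ak4 (GCN2) had differences of -0.20, -0.33 and 0.12. For Eif2ak1 all arsenic arrays lay below all controls, as for 1.93% of all probes. At GD9:00 Nck1, also on the upstream list, had -0.57 ± 0.26 (limma adjusted p = 0.388). All its arsenic arrays lay below all controls, as for 7.22% of all probes at that stage. Of 8 measured upstream genes 5 were higher at GD8:15, 3 at GD9:00 and 5 at GD9:12, and 0 passed at any of them.

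Other known targets of ATF4 were mostly higher with arsenic at the first pair of stages, none of them past the test. A list of 55, drawn up with earlier results of these data known, had 38 genes on the array and 30 measured. At GD8:15, 28 of the 30 were higher with arsenic, with a median difference of 0.25 against 0.00 for all probes. At GD9:00, 25 of 30 were higher, with a median of 0.32 against 0.01, and at GD9:12, 19 of 30, with 0.02 against -0.01. Limma called 0 of them at each stage. At GD8:15, 6 of the 30 had all arsenic arrays above all controls, at GD9:00 2 and at GD9:12 0, where the shares of all probes were 1.92%, 2.41% and 2.17%. Leaving out 1 array at a time left 25 to 30 of them higher at GD8:15 and 23 to 27 at GD9:00, and series D alone gave 29. The median at GD9:00 was 0.16 without arsenic replicate 1, 0.43 without arsenic replicate 2 and 0.18 with low runs masked.

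**Figure D3:**
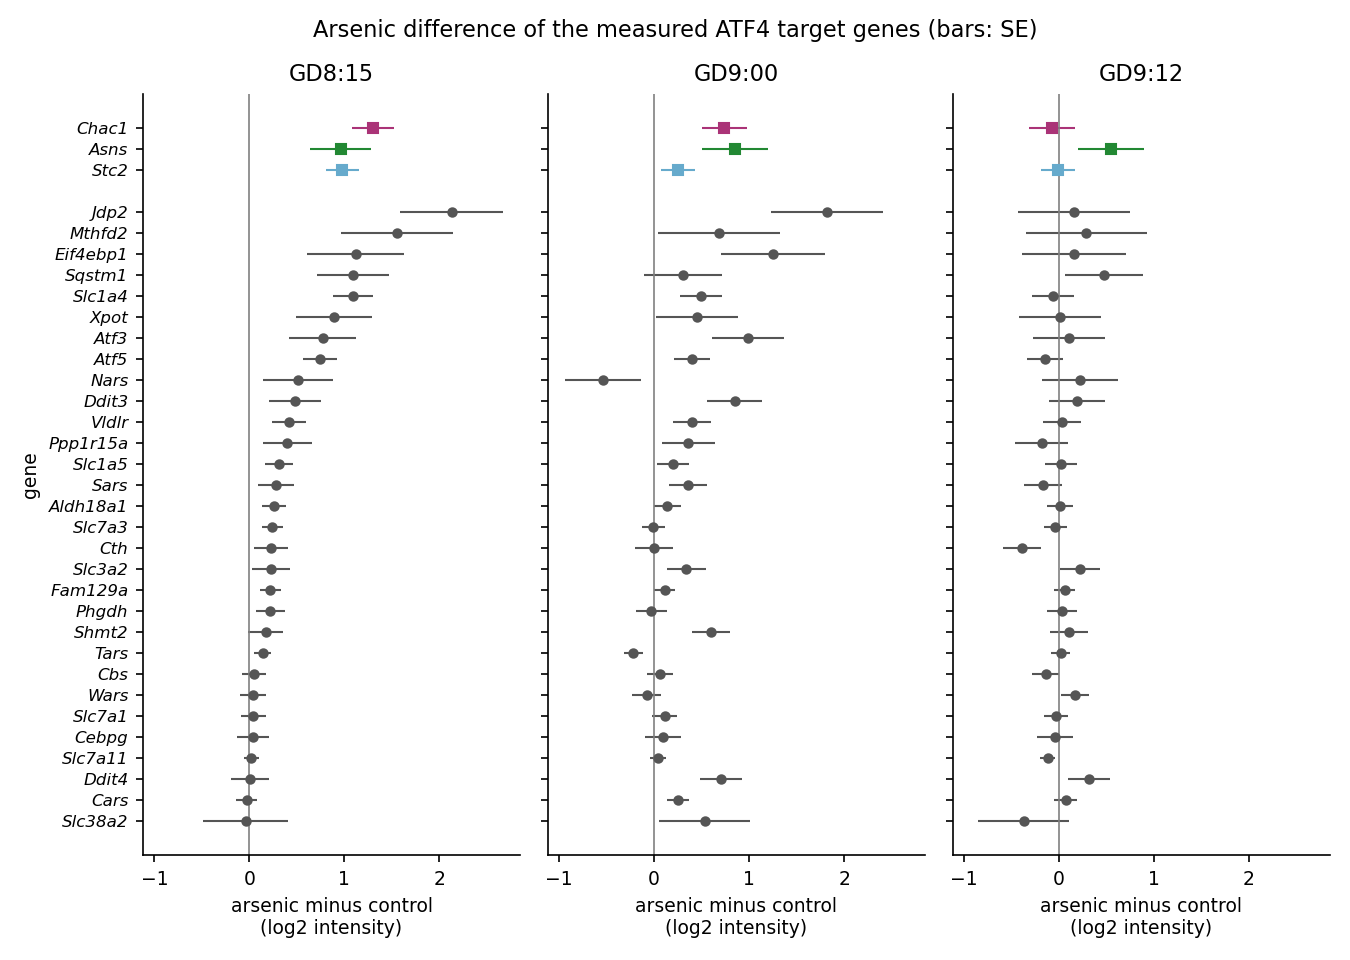
Each row is a gene, and the horizontal axis is the arsenic minus control difference in log2 intensity with its SE, 1 panel per stage; squares are Chac1, Asns and Stc2 and circles the 30 other measured ATF4 targets, ordered by their difference at GD8:15. At GD8:15, 28 of the 30 circles lie to the right of 0, and at GD9:12, 19 do.

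The 4 genes of lowest p in the list were as follows at each stage. Slc1a4, a carrier of neutral amino acids, was 1.09 ± 0.21 higher at GD8:15 (limma adjusted p = 0.0733), with controls at 7.11 to 7.51 and arsenic arrays at 8.00 to 8.76. Atf5, a sister factor of ATF4, was 0.74 ± 0.18 higher (limma adjusted p = 0.269), and Jdp2, a repressor of AP-1 sites, 2.13 ± 0.54 higher (limma adjusted p = 0.326). In none of these did an arsenic array overlap a control. Sqstm1, an autophagy receptor, was 1.09 ± 0.38 higher with overlap. At GD9:00 the lowest p belonged to Ddit4, an inhibitor of mTORC1 (0.70 ± 0.22), Jdp2 (1.82 ± 0.59), Shmt2, a mitochondrial serine enzyme (0.60 ± 0.20), and Ddit3, which encodes CHOP (0.85 ± 0.29), with adjusted p between 0.264 and 0.282 in limma. At GD9:12 it belonged to Cth, an enzyme of cysteine synthesis (-0.39 ± 0.20), Ddit4 (0.32 ± 0.22), Slc7a11, the cystine carrier (-0.12 ± 0.083), and Sqstm1 (0.47 ± 0.41), all at a limma adjusted p of 1.

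Chaperones and regulators of the other arms of the response to unfolded protein were mostly lower at the first pair of stages. Of 18 measured genes of the ATF6 and XBP1 arms, 6 were higher at GD8:15 (median -0.14), 6 at GD9:00 (median -0.18) and 13 at GD9:12 (median 0.12), and limma called 0 at each. With the scaling of the authors kept, the first pair of medians was 0.09 and 0.19, above 0 but below the medians of all probes under that scaling, 0.21 and 0.43. Hspa5, the chaperone BiP, read -0.84 ± 0.37, -0.89 ± 0.40 and 0.54 ± 0.40 at the 3 stages. Sdf2l1 and Calr, also proteins of the endoplasmic reticulum, had -0.77 ± 0.43 and -0.52 ± 0.31 at GD8:15, and Pdia6, a disulfide isomerase, had -0.81 ± 0.22 at GD9:00. At GD9:12 Pdia3 and Hsp90b1 of the same list had 0.70 ± 0.47 and 0.67 ± 0.47. Hyou1 had 0.17 ± 0.12 there, with all arsenic arrays above all controls, as for 2.17% of all probes.

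Genes near the enzymes in metabolism were divided in direction. Around Chac1, 10 measured genes of glutathione synthesis and breakdown had median differences of 0.00, -0.01 and 0.05, with 5, 5 and 6 higher and 0 called. Gclm and Gclc, the subunits of the enzyme that starts glutathione synthesis, had 0.44 ± 0.19 and 0.41 ± 0.29 at GD8:15. Chac2, the paralogue of Chac1, had -0.04 ± 0.13, -0.21 ± 0.14 and 0.16 ± 0.14. Around Asns, 7 measured genes of asparagine and aspartate metabolism had medians of 0.00, -0.04 and 0.19, with 4, 3 and 5 higher and 0 called. Nars, which charges tRNA with asparagine, had 0.51 ± 0.37, -0.54 ± 0.40 and 0.22 ± 0.40, and Asrgl1, an asparaginase, -0.09 ± 0.13, -0.20 ± 0.14 and -0.09 ± 0.14. Glul, also on this list, had -0.46 ± 0.49, 0.69 ± 0.53 and 0.86 ± 0.53. At GD9:12 all arsenic arrays of Glul lay above all controls, as for 2.17% of all probes. Stc1, the paralogue of Stc2, read 12.25 on control GD9:12 replicate 3 and between 6.89 and 7.42 on every other array, which gives its difference of -1.69 ± 0.75 at that stage.

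Across the 22 arrays, the profiles of Chac1 and Stc2 were alike, with a Pearson r of 0.790 (Spearman rho 0.658), Stc2 ranking 10 of 7282 candidates for Chac1. The likeness lies in the group means: after these were subtracted r was 0.146, and over the 11 controls it was -0.386. Chac1 and Asns had r = 0.592 (0.283 within groups), and Asns and Stc2 0.667 (0.358 within groups). All of these correlations share arrays and stages and are descriptions.

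The probes most like Chac1 were Jdp2 (r = 0.916), Slc1a4 (0.877), Hmox1, which breaks down haem (0.855), Atf3, a stress-induced repressor (0.853), and Alpk3, a kinase known from heart muscle (0.807). Within groups r stayed at 0.839 for Atf3 and 0.799 for Jdp2 and was 0.380 for Hmox1; the Atf3 value of arsenic GD8:15 replicate 2 (7.01) lies in a run of low signal. Those most like Stc2 were Hmox1 (0.892), Atf4 (0.828), Slc1a4 (0.824), the DNA repair gene Ogg1 (0.794) and Chac1. Those most like Asns were of another kind: Snap29, a membrane fusion protein (0.807), Gclc (0.803), the zinc-finger factor Klf6 (0.791), Snrpb, a splicing protein (0.774), and the mitochondrial import factor Timm44 (0.765). The most opposite profiles were those of Mkks for Chac1 (-0.810), Bcl9l for Stc2 (-0.766) and Mab21l2, a gene of eye and midbrain development, for Asns (-0.875). With the scaling of the authors kept, 2 of 5 for Chac1, 2 of 5 for Asns and 3 of 5 for Stc2 were again among the 5 most like.

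The arsenic arrays of GD8:15 did not rank alike from gene to gene. Replicate 3 was the highest of the 4 for Chac1 (9.31) and for Jdp2 (13.91, against 11.33 to 11.98 on the others). The same array was the lowest of the 4 for Stc2 (7.93), Asns (10.36) and Hmox1 (8.31, against 9.33 to 10.15). These ranks are of quantile-normalised values. In deposited intensities Stc2 was not lowest on replicate 3, with 331, 351, 339 and 328 on replicates 1 to 4. The array median of replicate 3 was 291, against 176, 191 and 220 on replicates 1, 2 and 4. Replicate 3 also had the lowest mean correlation with its group, 0.889, of all 22 arrays. At GD9:00 these genes shared the split of the arsenic arrays: Jdp2 read 12.09, 9.69 and 12.94, Hmox1 9.37, 7.55 and 9.20, and Atf3 8.55, 7.39 and 9.07 on arsenic replicates 1 to 3. On replicate 2 each of these normalised values lay inside the range of its controls, as did Ddit3 at 7.54 and Slc1a4 at 7.43. Asns on that array, at 10.87, was above all its controls. In deposited intensities Hmox1 (156) and Atf3 (139) on replicate 2 exceeded their controls, at 91 to 140 and 104 to 119. Jdp2, Ddit3 and Slc1a4 stayed inside their control ranges on that scale.

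**Figure D4:**
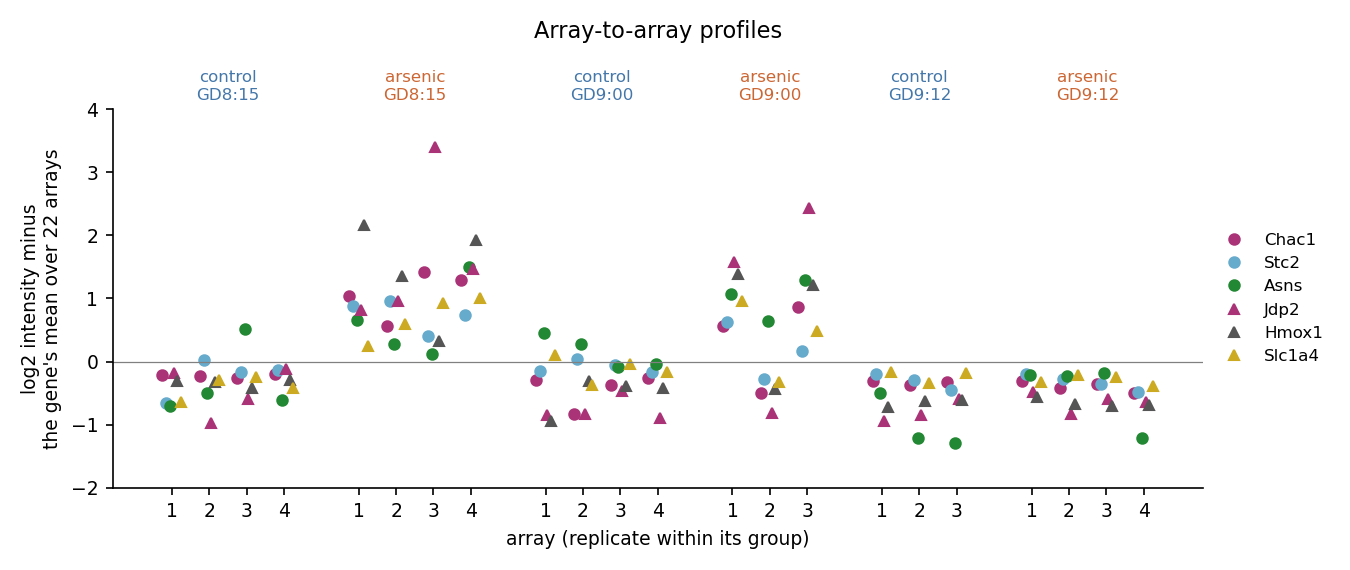
The vertical axis is the quantile-normalised log2 intensity of a gene minus its mean over the 22 arrays. The horizontal axis lists the arrays by group. Circles are Chac1, Stc2 and Asns, and triangles Jdp2, Hmox1 and Slc1a4. On arsenic GD9:00 replicate 2 only the Asns circle, at 10.87 in absolute terms, stands above its control group; on arsenic GD8:15 replicate 3 Chac1 (9.31) and Jdp2 (13.91) are highest while Stc2 (7.93) is lowest of its group.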

How the data were processed

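Arrays were CodeLink UniSet 10K, 1 sample each. The deposited values were linear intensities, scaled by the authors to array means that the values put near 600 (GD8:15), 500 (GD9:00) and 1000 (GD9:12); scanner software and background correction are not given in the sources used here. The 838 values of 1 or 2 were taken as placeholders (the lowest other value was 56) and set to missing. The log2 intensities were quantile normalised (limma 3.58.1, R 4.3.3). A probe was tested if every group had 2 or more values and its mean exceeded the lowest 25%; 59 of 10500 failed on values and 7830 passed. All 22 arrays entered 1 limma fit of 6 group means (lmFit, eBayes), with Benjamini-Hochberg adjustment over 7830 probes and a threshold of 0.05. The pipeline was tested on simulated data. Probe symbols came from the array annotation (9378 probes with 1 symbol, 8 with several, 1114 with none), so a value stands for its probe. A gene with several probes was represented by the brightest. Low runs were windows of 21 neighbouring probe numbers with a median deviation below -0.3 (log2), a window chosen after the data were seen. Genes named are the 3 members, the 5 most and the 1 least correlated probe of each, paralogues, Xist, Eif2s3y and Folr2. From the ATF4 target list they include the 4 of lowest p at each stage and the genes with a TGATGNAA match. Members named from the other lists, and markers, describe a list and were picked with their values in view. The members and all lists were chosen with earlier results of these data known. Replicate numbers follow deposit order and pair nothing. The number of arrays limits the precision: SEs of an arsenic difference were 0.17 to 0.35 for the 3 genes. Figures used Python 3.11.15 and matplotlib 3.10.9.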

Additional observations from a re-analysis of the deposited data

Results flagged for a closer look

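Of 12 groups of 4 arrays examined over the 3 genes, 2 held an array far from the others, where chance alone flags about 1 group in 20. Asns on control GD8:15 replicate 3 was 10.75, against 9.53 to 9.73 on the other 3 controls (gap over range 0.836). Without it the arsenic difference of Asns at GD8:15 was 1.25. No other array of that stage carried its title series, C, so series and array cannot be told apart here. Asns on arsenic GD9:12 replicate 4 was 9.03, against 10.01 to 10.05 on the other 3 arsenic arrays (gap over range 0.958); without it the difference at GD9:12 was 0.79. Neither array was far from its group for Chac1 or Stc2.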

How the results depend on the processing

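Of 395 values of the 3 genes under other settings, 367 counted as unchanged. For tested differences this meant the same direction and side of the threshold, whatever the size of the move. Asns at GD9:00 so counted as unchanged at 0.10 with median centring, against 0.85. For the untested arsenic differences at GD8:15 it meant a move under 1 SD, which held under every setting in which the gene was measured. The Stc2 probe was too dim to enter when the dimmest 50% of probes were left out. Leaving out 1 array at a time, the GD8:15 differences ranged from 1.22 to 1.48 for Chac1, 0.68 to 1.25 for Asns and 0.85 to 1.12 for Stc2. At GD9:00 the ranges were 0.47 to 1.15, 0.71 to 1.03 and 0.03 to 0.48, and at GD9:12 -0.10 to -0.03, 0.40 to 0.80 and -0.08 to 0.04. From GD8:15 to GD9:00, the control differences ranged from -0.27 to -0.08 for Chac1, 0.35 to 0.76 for Asns and 0.01 to 0.24 for Stc2. From GD9:00 to GD9:12 they ranged from -0.03 to 0.16, -1.40 to -1 and -0.28 to -0.17, and from GD8:15 to GD9:12 from -0.12 to -0.10, -0.93 to -0.39 and -0.22 to 0.01. Counts of probes called by limma ranged from 0 to 3 at GD8:15, 0 to 35 at GD9:00, 0 to 1 at GD9:12, 671 to 1394, 402 to 860 and 290 to 578 for the control differences in the same order, and 0 to 1 for the change of the arsenic difference from GD9:00 to GD9:12. The causes of the changes were not tested.

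With the scaling of the authors kept, which moves the median of all probes by 0.21, 0.43 and 0.02 in the arsenic differences and by -0.49, 0.79 and 0.27 in the control differences, Chac1 passed in controls from GD8:15 to GD9:00 (-0.73) and to GD9:12 from GD9:00 (0.84). Asns at -0.27 no longer passed there. Under this scaling Stc2 changed sign at GD9:12 (0.03) and in the control differences (-0.36, 0.43 and 0.08), Chac1 from GD8:15 to GD9:12 (0.11) and the change of the Asns difference (0.05). Counts were 1 at GD9:00 and 2744, 5612 and 1421 between controls. With median centring, Asns had 0.60, 0.10 and 0.60 for arsenic in stage order, -0.98 between the later controls (no longer past the threshold) and a change of its arsenic difference of 0.50, and counts were 1 at GD9:00, 1364 and 974 for the later control differences (880 and 604 in the main fit) and 1 for the change. With low runs masked, the Chac1 control difference from GD9:00 to GD9:12 was -0.03 and 3 probes were called at GD8:15, as with values of 1 or 2 kept (3). Leaving out the dimmest 50% of probes, that of Stc2 among them, gave 726 and the groups alone 615 calls from GD8:15 to GD9:00 (1173 in the main fit). Array weights gave 4, 110 and 1 calls for arsenic, 1972, 1801 and 2034 between controls and 1 for the change; Stc2 at GD9:12 was 0.02 and Asns from GD8:15 to GD9:12 passed at -0.69. The trended robust fit called 5 probes at GD8:15. With the title series as a block, Stc2 at GD9:12 was 0.04, Asns from GD8:15 to GD9:00 -0.37, and counts were 2 at GD9:00 and 35, 519 and 47 between controls; within 1 series they were 59, 561 and 128, with the same 0.04 and -0.37. Within series C, the GD8:15 controls are replicate 3 alone. The 59, the 128 and the -0.37 within 1 series therefore compare later controls with 1 array. Its Asns value, 10.75, lay far from the other GD8:15 controls. With 1 array on that side, series, array and stage cannot be told apart, and no conclusion is drawn from these values. No paired analysis was possible because the labels give no replicate numbers. The exact permutation test cannot pass with 4 arrays against 3 (smallest p 0.0571); for 4 against 4 controls it gave no p below 0.0571. The control means of Chac1 lay at percentiles 55.8, 45.9 and 51.7 of all probes in stage order, and those of Stc2 at 34.4, 44.8 and 26.9. At GD9:12 every Stc2 value, 7.04 to 7.33, lay within the range of the deleted gene Folr2, 6.68 to 7.47. Whether these low signals stand above background was not tested, which limits how well the size of a fold, or a return to control level, is known.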
